A study of Mus musculus with 18 samples.

Results

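Invariant natural killer T (iNKT) cells sorted from the thymus of wild-type (WT) mice at stage 3 (S3) were compared with those at stage 1 (S1), 3 arrays against 3, which gives the net difference in RNA between the 2 ends of their thymic maturation. The 6 arrays were taken by their titles from the 18 of the series, and the stage between them was not used. RNA was measured on Affymetrix MoGene-2_0 arrays in cells of C57BL/6 mice of both genotypes of the study, WT and Mst1KO (Cd4CreMst1fl/fl), in which Cre recombinase driven by Cd4 deletes the floxed Mst1 gene (Stk4). Cd4-driven Cre acts in conventional T cells as well as in iNKT cells, so the deletion is not particular to the sorted cells. Every sorted cell carried TCRβ, bound a CD1d tetramer loaded with PBS57 and lacked CD24. S1 cells lacked CD44 and NK1.1, and S3 cells carried both. The 3 Mst1KO arrays at S1 and the 3 at S3 served as a separate comparison of the same stages, and every other animal factor the labels give was shared by the groups. According to the series design each genotype was represented by 3 mice, so the stages may share animals, yet no label links an array to its animal, and the replicate spread behind the p-values may therefore be technical in part.

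iNKT cells are T cells whose semi-invariant receptor reads lipids on CD1d. They arise from cortical thymocytes, divide after selection, and then take on effector programs named after the T helper cells they resemble: NKT1 cells make interferon gamma under T-bet, NKT2 cells make IL-4 and IL-13, and NKT17 cells make IL-17. NKT1 cells also acquire receptors first described on natural killer (NK) cells, among them NK1.1. Cd44 and Klrb1c, the gene of NK1.1, define the gate, so their differences of 2.51 ± 0.10 and 5.43 ± 0.25 check the sort and are no finding. The third gate gene, Cd24a, did not pass the filter on low values, with 4.44, 3.93 and 4.21 on the S1 arrays and 5.32, 4.84 and 5.33 on the S3 arrays. Genes that identify the sorted cells were present at both stages: Cd3e, a chain of the T cell receptor complex, read 11.61, 11.51 and 11.54 at S1 and 12.15, 12.08 and 11.96 at S3, and Cd3d read 11.80, 11.77 and 11.79 at S1 and 11.82, 11.84 and 11.80 at S3.

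Values are log2 expression of the brightest probe set of each gene, a difference is log2 S3 minus S1 ± SE (n = 3 per group), and a gene is called when its adjusted p is under 0.05. Of 22180 genes with a probe set of their own, 12232 passed the filter and were tested. Between S1 and S3, 3772 genes changed (30.8% of those tested), 1729 higher (14.1%) and 2043 lower (16.7%), and the median difference of all genes was -0.01. Of the changed genes 466 were higher and 589 lower by at least 1 on the log2 scale. Past 3, or 8-fold, there were 54 higher and 40 lower. The S3 arrays lay wholly above the S1 arrays for 21.6% of genes and wholly below for 24.7%. The array medians lay between 4.84 and 4.93. Arrays of a stage correlated across probe sets at 0.978 to 0.986, and arrays of different stages at 0.960 to 0.964. With 3 arrays per group, the number of arrays limits the precision.

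The largest increases were of NK receptors and of the genes that NKT1 cells use to sense IL-12 and to kill. Klra5, a receptor of the Ly49 family, read 3.17, 4.22 and 4.98 on the S1 arrays and 10.95, 11.55 and 11.62 on the S3 arrays. Gzmb, the gene of granzyme B, read 4.16, 4.30 and 5.52 at S1 and 11.95, 11.86 and 11.84 at S3. The stages lay far apart for both, by 7.25 ± 0.41 and 7.22 ± 0.32 (adjusted p = 9.48e-06 and 3.05e-06). Klre1 (6.41 ± 0.19), Klrd1, which encodes the CD94 chain (6.34 ± 0.39), Klra9 (6.31 ± 0.37), the collagen-binding integrin gene Itga1 (6.19 ± 0.17) and the chemokine gene Xcl1 (6.08 ± 0.18) came next. They were followed by Klrk1, the NKG2D gene (5.75 ± 0.28), Il12rb2 (5.65 ± 0.13), Klrb1c, Stat4 (5.34 ± 0.21), Klrc1, the NKG2A gene (5.32 ± 0.14), Slamf7 (5.01 ± 0.12), the chemokine gene Ccl5 (4.97 ± 0.20) and Fasl (4.83 ± 0.24). For all 15 of these genes the S3 arrays stood above the S1 arrays without overlap, as the choice of genes required. Of the 15, 6 (Klre1, Klra9, Itga1, Klrk1, Klrb1c and Klrc1) lay below the median on every S1 array, so the sizes of their differences are not exact and no order is read among them. Klra5 and Gzmb were also below 4.84, the lowest array median, on S1 replicates 1 and 2. The same held for Klrd1 and Stat4 on replicate 2 and for Il12rb2 on replicates 2 and 3. The sizes and ranks of these differences are not exact either. In a bulk sort, more cells of a type and more RNA per cell cannot be told apart, here and in every result that follows.

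**Figure D1:**
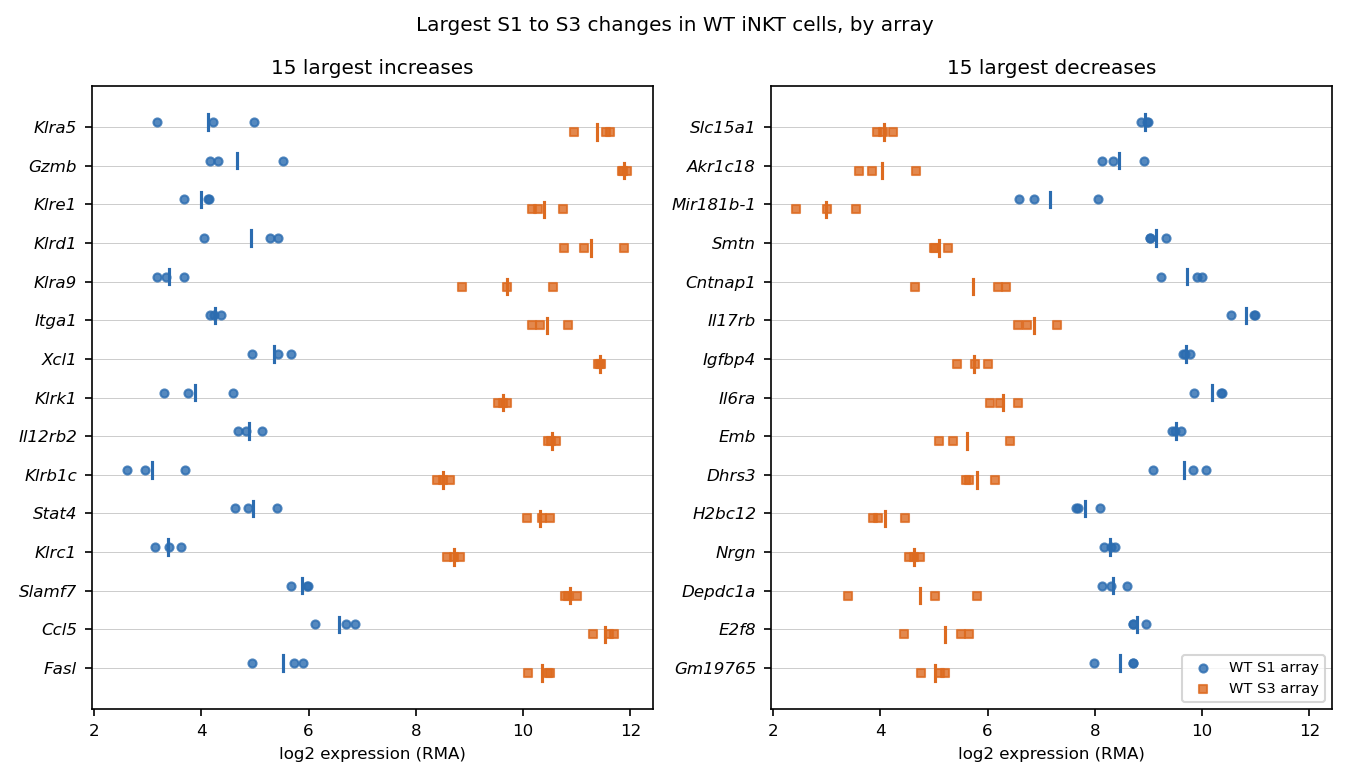
Log2 expression (horizontal axis) of the 15 called genes with the largest increase (left) and the 15 with the largest decrease (right) on each WT array, S1 as circles and S3 as squares, with the mean of 3 arrays as a vertical bar. The S1 and S3 arrays do not overlap for any of the 30 genes, and the changes run from 7.25 for Klra5 to -4.87 for Slc15a1. Both of these genes have arrays below the array median at their lower stage, so these sizes are not exact.

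Among NK receptors, inhibitory and activating members rose alike. Of 20 listed receptors on the array 17 were tested, and 11 of these passed the filter through the S3 arrays alone, with every S1 array below its median, so they had to differ and the count of 17 called higher is a description, not support. Klrg1 (4.22 to 4.34 at S1, 4.21 to 4.65 at S3), Klri1 and Crtam stayed under the filter. The inhibitory heterodimer partners Klrd1 and Klrc1 rose beside the activating partners Klrc2 (4.73 ± 0.23) and Klrc3 (4.39 ± 0.38) and beside Klrk1. Klrb1b, another receptor of the NK1.1 family, rose by 1.99 ± 0.24 and Klrb1f by 2.79 ± 0.37. Receptors encoded elsewhere in the genome rose too, among them Cd226, the DNAM-1 gene (2.07 ± 0.24), and Cd160 (1.39 ± 0.13). The smallest increase was that of Ncr1, which encodes NKp46, at 1.23 ± 0.40 (adjusted p = 0.0468). It read 4.18, 4.33 and 4.14 at S1 and 4.91, 4.89 and 6.54 at S3, so that 1 S3 array stood far above the others, and the call was lost in 3 of 6 fits that each left out an array, those without an S1 array. The Klra genes resemble each other closely in sequence, so the assignment of signal to a single member is uncertain.

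Many of these receptors are neighbours in the NK gene complex, a cluster of C-type lectin-like genes. From Klrb1 to Klra9, in the order of the RefSeq annotation of GRCm38.p6, 23 genes were tested, of which 19 were higher and 4 were not called. The 13 Klr genes called higher included 10 that passed the filter through S3 alone, so that count too is no support. The Klr gene not called was Klrb1, with 4.92, 5.16 and 4.51 at S1 and 4.33, 5.04 and 4.60 at S3, where the stages overlapped. Among the 9 other genes 6 rose, against 14.1% of all genes. They included the activation marker Cd69 (1.78 ± 0.17) and Clec2d, whose product is a ligand of an NKR-P1 receptor (1.22 ± 0.12). Clec7a, the dectin-1 gene (1.35 ± 0.24), which passed the filter through S3 alone, and Gabarapl1, an autophagy gene (1.09 ± 0.20), rose too. Clec2i, a neighbouring lectin gene, read 8.05, 8.24 and 7.87 at S1 and 7.64, 8.45 and 8.18 at S3, and was not called. Clec2m (-0.05 ± 0.11) and Tmem52b (-0.21 ± 0.10) were not called either. Thus genes that rose by less than 2 and genes that were not called lay between Klr genes that rose by more.

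**Figure D2:**
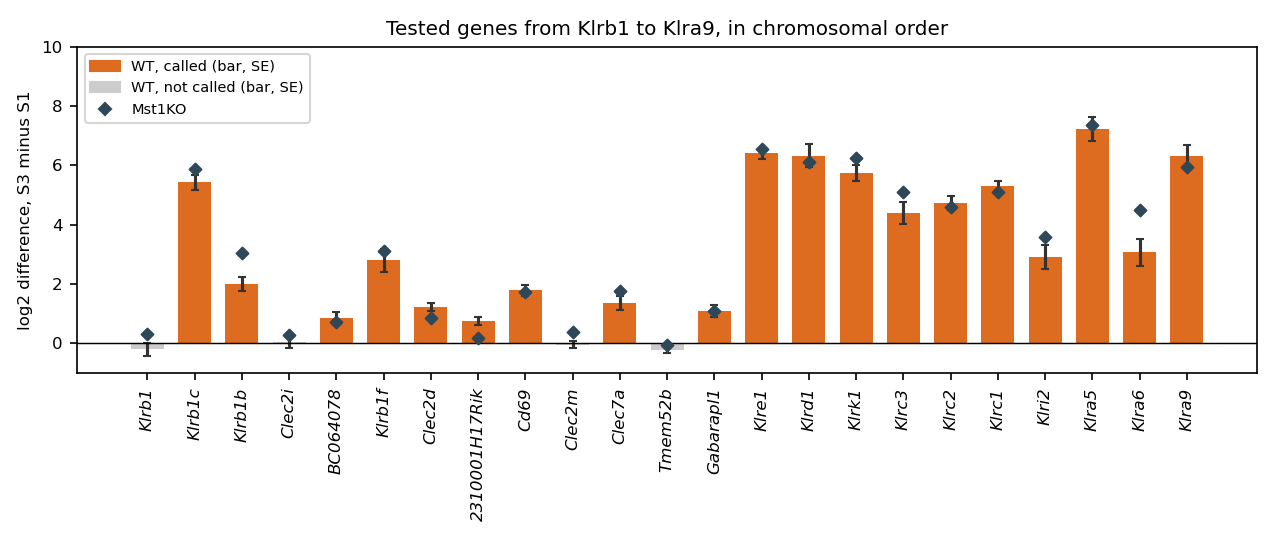
Log2 S3 minus S1 (vertical axis) of the 23 tested genes from Klrb1 to Klra9 in chromosomal order, as WT bars with SE (n = 3 per stage), orange where called and grey where not, and Mst1KO as diamonds. In WT 19 genes are higher and 4 are not called, and every gene from Klre1 to Klra9 at the right end, all of them Klr genes, is higher by at least 2.92.

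The adaptors and phosphatases through which NK receptors signal moved less. Of 12 tested, 8 were higher (66.7%, all genes 14.1%) and 1 lower (8.33%, all genes 16.7%), with a median of 0.53. Fcer1g, the common Fc receptor gamma chain, read 6.25, 6.17 and 6.64 at S1 and 9.78, 9.83 and 9.62 at S3 (3.39 ± 0.14). Tyrobp, which encodes DAP12, rose by 2.21 ± 0.20 and Hcst, the DAP10 gene, by 1.22 ± 0.11, as did the phosphatase gene Ptpn6, known as SHP-1 (0.80 ± 0.10), and Vav3 (0.72 ± 0.16). Sh2d1a, the gene of the adaptor SAP, fell by 0.43 on the log2 scale (SE 0.13), a call lost without S1 replicate 1, 2 or 3 or S3 replicate 1, and the kinase genes Syk (-0.22 ± 0.10) and Zap70 (0.19 ± 0.12) were not called. The list of markers of NK and innate lymphoid cells shares Fcer1g and Tyrobp with these genes and Ncr1 with the NK receptors. Its count is therefore a description, not separate support. Of 6 tested markers 5 rose (83.3%, all genes 14.1%), namely Fcer1g, Tyrobp, Fcgr3 (1.75 ± 0.18), Irf8 (1.15 ± 0.25) and Ncr1. Of the 6, 1 passed the filter through S3 alone and had to rise. The levels of the 9 measured, summed on the linear scale and given as log2, were 8.05 to 8.37 at S1 and 10.3 to 10.5 at S3. Such a sum is set mostly by its brightest members, and the summed levels of markers further on were formed alike. Eomes, the NK regulator that defines conventional NK cells, Klrg1 and Gata2 lay below the array median on every array, with Eomes at 3.56 to 3.96. The part of such cells in the result was not tested.

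Components of the IL-12, IL-18 and interferon gamma axis, the core of the NKT1 program, rose in an uneven way. Of 23 tested NKT1 genes 21 were higher (91.3%, all genes 14.1%) and 1 lower (4.35%, all genes 16.7%), with a median of 3.03. Of the 23, 3 passed the filter through S3 alone and had to rise. Among receptors, Il12rb2, the inducible chain of the IL-12 receptor, read 5.14, 4.68 and 4.83 at S1 and 10.61, 10.53 and 10.47 at S3. Il12rb1, the chain shared with the IL-23 receptor, read 8.93, 8.79 and 8.82 at S1 and 8.24, 8.44 and 8.65 at S3. The first rose by 5.65 ± 0.13, and the second was lower by 0.40 on the log2 scale (SE 0.13, adjusted p = 0.0424), a call that held without S3 replicate 3 and was lost without each of the other arrays. The IL-18 receptor chains differed likewise: Il18rap rose by 3.03 ± 0.22, while Il18r1 was at 0.24 ± 0.12 and not called. Downstream of IL-12, the signal transducer gene Stat4 read 4.87, 4.63 and 5.42 at S1 and 10.36, 10.50 and 10.07 at S3. Tbx21, which encodes T-bet (2.48 ± 0.12), Runx3, its partner (2.05 ± 0.24), and the effector gene Ifng (3.26 ± 0.18) rose as well, each without overlap of the stages.

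The products of the axis and the receptor for its cytokine were also part of the difference. Ifngr1, the ligand-binding chain of the interferon gamma receptor, rose by 3.01 ± 0.19, from 7.73, 7.35 and 8.10 to 10.90, 10.62 and 10.68. Ifngr2, the signalling chain, fell by 2.51 on the log2 scale (SE 0.16), from 8.65, 8.84 and 8.52 to 6.50, 5.94 and 6.05. The 2 chains of the receptor thus moved in opposite directions, each without overlap. The interferon-stimulated genes, 19 tested, had 5 higher and 2 lower (36.8%, near the 30.8% of all genes) with a median of 0.16, among them Irf1 (0.58 ± 0.09), Ifit1 (0.63 ± 0.13) and Oasl2 (-1.34 ± 0.13). Without WT S1 replicate 2, 3 of them were called higher.

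Cytotoxic effector genes rose, and genes of granule release were not called. Of 18 tested 10 were higher (55.6%, all genes 14.1%) and 2 lower (11.1%, all genes 16.7%), with a median of 1.13. Of the 18, 1 passed the filter through S3 alone and had to rise. Beside Gzmb, the pore-forming protein gene Prf1 read 5.44, 5.21 and 5.77 at S1 and 10.04, 9.86 and 9.50 at S3 (4.33 ± 0.18), and Gzmc, a further granzyme gene, rose by 3.67 ± 0.19. Gzma, the granzyme A gene, read 4.93, 4.83 and 7.24 at S1 and 9.80, 9.58 and 9.42 at S3, with 1 S1 array well above the others and still below the S3 arrays (3.93 ± 0.56). The death ligand gene Tnfsf10, known as TRAIL, rose by 1.95 ± 0.23 and the granzyme inhibitor gene Serpinb9 by 1.66 ± 0.16. Lamp1, a lysosomal membrane gene (-0.56 ± 0.12), and Ctsc, the protease that activates granzymes (-0.40 ± 0.12), fell, the latter a call lost without any array of the 6. The granule release genes Unc13d (0.16 ± 0.11), Stx11 (0.29 ± 0.12), Stxbp2 (0.03 ± 0.10) and Rab27a (-0.35 ± 0.12) were not called. Rab27a was borderline, since it was called lower in 6 of 17 alternative runs.

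Transcription factors of lineage choice changed in both directions in equal number. Of 38 tested, 14 were higher (36.8%, all genes 14.1%) and 14 lower (36.8%, all genes 16.7%), with a median of -0.03. Besides Tbx21 and Runx3, Bhlhe40, a T-bet cofactor in iNKT cells, read 6.39, 6.04 and 6.33 at S1 and 9.32, 9.27 and 9.77 at S3 (3.20 ± 0.16). Id2, an inhibitor of E proteins, rose by 0.70 ± 0.14 while Id3, its relative, fell without overlap of the stages (-2.63 ± 0.11). Zbtb16, which encodes PLZF, the factor that directs the innate-like program of iNKT cells, read 11.79, 11.81 and 11.72 at S1 and 9.86, 10.15 and 10.43 at S3 (-1.62 ± 0.15). Further decreases were those of Myb (-2.82 ± 0.19), Sox4 (-2.52 ± 0.21), Irf4 (-2.51 ± 0.15), the TCF family member Lef1 (-1.60 ± 0.12), Tox (-0.72 ± 0.13) and Runx1 (-0.81 ± 0.09), the last opposite in direction to Runx3. Bcl6 (0.95 ± 0.17), Prdm1, the Blimp-1 gene (0.94 ± 0.13), and Nfil3 (0.82 ± 0.15) rose. The receptor-induced factors Egr1 (0.05 ± 0.12), Egr2 (-0.45 ± 0.18) and Egr3 (-0.20 ± 0.14) were not called.

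NKT2 genes fell, with exceptions. Of 16 tested 11 were lower, against 16.7% of all genes, and 3 higher, with a median of -1.14. Il13 read 8.30, 8.40 and 8.32 at S1 and 6.23, 5.57 and 5.72 at S3 (-2.50 ± 0.17), and Il4 read 9.21, 9.29 and 9.39 at S1 and 8.34, 8.31 and 7.99 at S3 (-1.08 ± 0.12). Il17rb, the IL-25 receptor chain that marks NKT2 cells, fell most, from 10.97, 10.98 and 10.53 to 6.56, 7.29 and 6.73 (-3.96 ± 0.21). Il6ra (-3.90 ± 0.18), the chemokine receptor Ccr4 (-3.09 ± 0.27), the costimulatory receptor Icos (-1.20 ± 0.12) and Gata3, the regulator of IL-4 (-0.42 ± 0.10), were lower too. The members that rose were Il4ra, which binds the cytokine that NKT2 cells make (3.16 ± 0.13), the lymphotoxin gene Ltb (1.25 ± 0.10) and the regulator Maf (0.84 ± 0.16). Il4ra read 6.30, 6.15 and 6.36 at S1 and 9.60, 9.50 and 9.18 at S3, without overlap.

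NKT17 genes were called about as often as genes at large. Of 15 tested 2 were higher and 2 lower (26.7%, all genes 30.8%), with a median of 0.08. Neuropilin-1 (Nrp1, -1.86 ± 0.17), a surface receptor, and Rora (-1.33 ± 0.20), a nuclear receptor of the IL-17 program, fell, and Tmem176b (1.27 ± 0.16) and the IL-7 receptor gene Il7r (0.60 ± 0.11) rose. Serpinb1a, a protease inhibitor gene, read 5.49, 5.42 and 5.12 at S1 and 5.23, 5.95 and 4.82 at S3, and the IL-1 receptor gene Il1r1 5.43, 4.50 and 5.29 at S1 and 5.62, 5.59 and 5.14 at S3. Il23r read 5.15, 4.95 and 5.70 at S1 and 6.34, 7.48 and 3.92 at S3, so its S3 arrays lay on both sides of the S1 arrays. This gives Il23r the widest error of the genes described here (0.65 ± 0.76). Cd163l1, a marker of gamma-delta T cells, fell by 1.61 on the log2 scale (SE 0.11), and the summed level of the 3 such markers was 8.71 to 9.21 at S1 and 7.57 to 8.10 at S3.

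**Figure D3:**
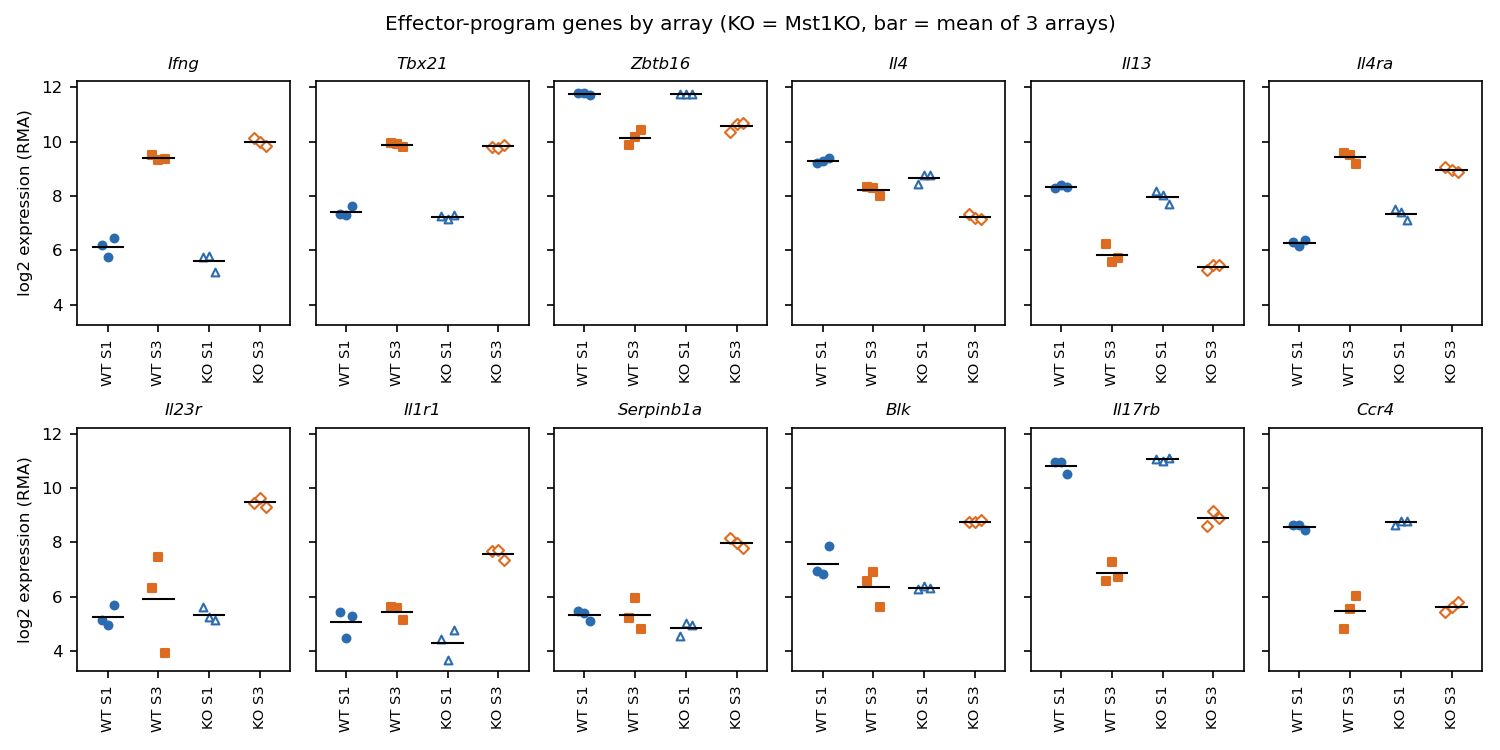
Log2 expression (vertical axis) of 12 genes of the NKT1, NKT2 and NKT17 programs on each array of WT and Mst1KO (KO) at S1 and S3, with the mean of 3 arrays as a bar. Ifng and Tbx21 are higher and Zbtb16, Il4, Il13, Il17rb and Ccr4 lower at S3 in both genotypes, while Il1r1, Serpinb1a and Blk are called in Mst1KO and not in WT.

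Nearly all tested genes of the dividing cell were lower at S3. All 37 tested mitosis genes fell, against 16.7% of all genes, with differences between -1.17 and -3.60 and a median of -2.76. Of the 37, 2 passed the filter through the S1 arrays alone, so these 2 had to fall. Cdk1, the kinase that drives entry into mitosis, read 9.43, 9.63 and 9.67 at S1 and 5.96, 6.16 and 6.76 at S3 (-3.28 ± 0.20), and the spindle motor gene Kif11 read 9.79, 9.76 and 9.83 at S1 and 6.39, 6.55 and 6.79 at S3 (-3.22 ± 0.12). The proliferation marker Mki67 read 10.92, 11.08 and 11.01 at S1 and 7.37, 7.84 and 8.82 at S3. S3 replicate 3 had the highest value of the S3 arrays for these 3 genes and for cyclin A2 (Ccna2), at 5.22, 4.45 and 6.90, and stayed below every S1 array. Depdc1a (-3.60 ± 0.51), Top2a, which encodes topoisomerase II alpha (-3.45 ± 0.27), and Ccnb2, a mitotic cyclin (-3.13 ± 0.22), fell as far, and Cdc25b (-1.17 ± 0.09) and the centromere histone gene Cenpa (-1.23 ± 0.13) fell least.

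Of 37 DNA replication genes 35 fell, against 16.7% of all genes, and 2 were not called, with a median of -1.44. Of the 37, 2 passed the filter through S1 alone and had to fall. The repressor E2f8 (-3.59 ± 0.29), the licensing factor Cdc6 (-2.84 ± 0.15), Rrm2, the inducible subunit of ribonucleotide reductase (-2.84 ± 0.33), the maintenance methylation partner Uhrf1 (-2.83 ± 0.19) and E2f2 (-2.50 ± 0.13) fell most. Helicase subunits fell by less: Mcm5 read 10.39, 10.41 and 10.65 at S1 and 9.09, 8.85 and 9.09 at S3, and Mcm6 read 10.57, 10.56 and 10.65 at S1 and 9.56, 9.37 and 9.65 at S3. Pcna, the sliding clamp, differed by -0.51 ± 0.09, and Cdt1 (-0.17 ± 0.16) and Fen1 (-0.48 ± 0.17) were not called. Among 15 replication-dependent histone genes 11 fell (73.3%, all genes 16.7%) and 2 rose (13.3%, all genes 14.1%), with a median of -1.51. Of the 15, 3 passed the filter through S1 alone and had to fall. H2bc12, an H2B gene, fell by 3.72 on the log2 scale (SE 0.19), and H4c14, an H4 gene, rose from 4.85, 5.07 and 4.76 to 7.70, 7.76 and 6.77 (2.52 ± 0.25). Histone genes of a class are near-identical in their coding part, so which copy a probe set reads is uncertain.

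The mitosis genes fell together, and most but not all of their promoters hold short sequences known from cell cycle control. These are the CCAAT box, bound by NF-Y, and TTTGAA, the letters of the cell cycle homology region. The 250 bases before the start of the 4 members with the largest decrease are shown, from RefSeq on GRCm38.p6, read toward the gene, with CCAAT and TTTGAA in capitals on either strand (as ATTGG and TTCAAA on the other).
Depdc1a, chr3:159495183-159495432, + strand: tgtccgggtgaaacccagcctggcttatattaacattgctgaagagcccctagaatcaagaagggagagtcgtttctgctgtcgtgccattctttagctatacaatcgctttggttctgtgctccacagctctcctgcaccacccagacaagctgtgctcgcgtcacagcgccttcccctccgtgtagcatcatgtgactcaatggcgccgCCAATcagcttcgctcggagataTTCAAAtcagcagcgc
Top2a, chr11:99024190-99024439, - strand: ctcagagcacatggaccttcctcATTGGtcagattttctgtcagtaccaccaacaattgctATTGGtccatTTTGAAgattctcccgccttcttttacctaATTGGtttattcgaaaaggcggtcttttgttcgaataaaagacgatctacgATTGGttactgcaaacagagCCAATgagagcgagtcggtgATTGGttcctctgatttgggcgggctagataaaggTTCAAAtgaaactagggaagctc
Cdk1, chr10:69352913-69353162, - strand: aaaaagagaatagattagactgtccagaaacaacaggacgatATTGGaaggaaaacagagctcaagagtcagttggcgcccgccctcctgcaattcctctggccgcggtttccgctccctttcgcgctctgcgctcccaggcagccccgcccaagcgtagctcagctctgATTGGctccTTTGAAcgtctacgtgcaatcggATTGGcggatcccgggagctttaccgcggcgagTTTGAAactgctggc
Kif11, chr19:37376132-37376381, + strand: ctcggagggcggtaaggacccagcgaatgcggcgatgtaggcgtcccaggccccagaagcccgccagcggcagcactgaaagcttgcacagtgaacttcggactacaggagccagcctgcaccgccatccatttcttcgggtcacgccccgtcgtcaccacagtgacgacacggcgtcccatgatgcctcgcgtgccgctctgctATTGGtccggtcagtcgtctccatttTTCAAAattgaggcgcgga
In each of these 4 the TTTGAA nearest the start lies 9 to 17 bases before it, with a CCAAT 34 to 53 bases before the start. This spacing does not hold for the list. In Ccnb2 the nearest TTTGAA before the start lies 161 bases away, and Birc5 and Nuf2 hold neither sequence. For others, such as Plk1, Aurka and Ttk, the TTTGAA counted below is not within the 250 bases before the start.

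Over all 34 windows of mitosis genes (32 genes matched, each window 250 bases before to 50 after a start, both strands), CCAAT was in 79.4% and TTTGAA in 76.5%, against 37.4% and 17.9% of all 32851 windows of the table. Both were in 67.6% against 6.95%. Of the windows of tested genes 4.72% held both. For the replication genes the letters searched were those of E2F sites, TTTCCCGC or TTTGGCGC. They were in 12 of 41 windows (29.3%) against 1.56% of all windows and 2.93% of windows of tested genes. The share was 5.37% in windows of genes lower at S3 and 1.84% in those higher. The windows of E2f8, Rrm2 and Uhrf1, among the largest decreases of the list, hold none of these sites. The same stretch of 2 helicase subunit genes that do hold them is shown with these letters in capitals on either strand.
Mcm5, chr8:75109259-75109508, + strand: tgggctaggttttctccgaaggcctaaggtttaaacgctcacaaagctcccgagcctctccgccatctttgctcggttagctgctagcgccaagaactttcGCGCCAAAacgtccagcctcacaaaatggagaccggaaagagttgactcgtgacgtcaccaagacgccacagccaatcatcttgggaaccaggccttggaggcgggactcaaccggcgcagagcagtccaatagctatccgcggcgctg
Mcm6, chr1:128359706-128359955, - strand: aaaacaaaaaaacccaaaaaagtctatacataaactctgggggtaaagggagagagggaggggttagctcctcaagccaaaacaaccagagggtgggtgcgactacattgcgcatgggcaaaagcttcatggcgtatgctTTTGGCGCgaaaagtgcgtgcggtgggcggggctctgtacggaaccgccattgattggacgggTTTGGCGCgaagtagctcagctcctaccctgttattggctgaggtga
A T-box sequence, TCACACCT, was in 1 of 22 windows of NKT1 genes (4.55%, all windows 1.28%), and the AP-1 letters TGANTCA were in 26.3% of 19 windows of NK receptor genes (all windows 7.81%). The motifs do not overlap each other in the letters shown, and a match is a description of the letters, not a site of binding.

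Genes that hold T cells in a resting state rose in part. Of 25 tested 11 were higher (44%, all genes 14.1%) and 5 lower (20%, all genes 16.7%), with a median of 0.30. Of the 25, 1 passed the filter through S3 alone and had to rise. The antiproliferative genes Btg1 (1.31 ± 0.11) and Btg2 (1.66 ± 0.12), the glucose uptake inhibitor gene Txnip (1.68 ± 0.17) and Klf3 (1.62 ± 0.24) rose. The cell cycle inhibitors Cdkn2c, p18 (-1.25 ± 0.11), and Rb1 (-1.01 ± 0.10) fell, and those most often named as brakes, Cdkn1b (0.28 ± 0.12) and Cdkn1a (0.09 ± 0.19), were not called. Klf2, a regulator of T cell quiescence and trafficking, read 6.79, 6.95 and 6.46 at S1 and 7.32, 7.38 and 6.41 at S3, with overlap.

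Lists of growth and energy metabolism differed from each other. Of 29 genes of MYC and ribosome biogenesis 13 fell (44.8%, all genes 16.7%) and 3 rose (10.3%, all genes 14.1%), with a median of -0.33. Without WT S1 replicate 3, 8 were lower. Wdr12, a ribosome assembly gene, fell by 1.07 on the log2 scale (SE 0.14), whereas Myc itself read 8.66, 8.49 and 8.93 at S1 and 9.43, 9.16 and 9.32 at S3 (0.61 ± 0.14). Of 56 cytosolic ribosomal protein genes 1 was higher, 3 lower and 52 not called (median -0.02), so 7.14% were called against 30.8% of all genes. Of 17 glycolysis genes 10 fell (58.8%, all genes 16.7%), or 6 without WT S1 replicate 1. Among the genes that fell were Ldhb (-1.10 ± 0.14), Pgk1 (-0.83 ± 0.11) and the lactate transporter Slc16a1 (-0.97 ± 0.14). The glucose transporters Slc2a1 (0.75 ± 0.15) and Slc2a3 (1.29 ± 0.14) rose, against the enzymes. Of 28 respiratory chain genes 10 fell and 18 were not called. That is 35.7% lower against 16.7% of all genes. The decreases were at most 0.70 on the log2 scale (Ndufc2). That count was 4 without WT S1 replicate 1, 5 without WT S3 replicate 1, 4 without WT S3 replicate 2, 3 without WT S1 replicate 3 and 5 without WT S3 replicate 3. The leucine transporter Slc7a5 fell by 1.17 on the log2 scale (SE 0.11), and 3 more of 10 amino acid transporters fell (40% lower, all genes 16.7%). Of 20 genes of sterol and fatty acid synthesis 3 were higher and 2 lower (median 0.05), a share of called genes near the 30.8% of all genes, with the sterol sensor partner Insig1 at 1.15 ± 0.22.

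**Figure D4:**
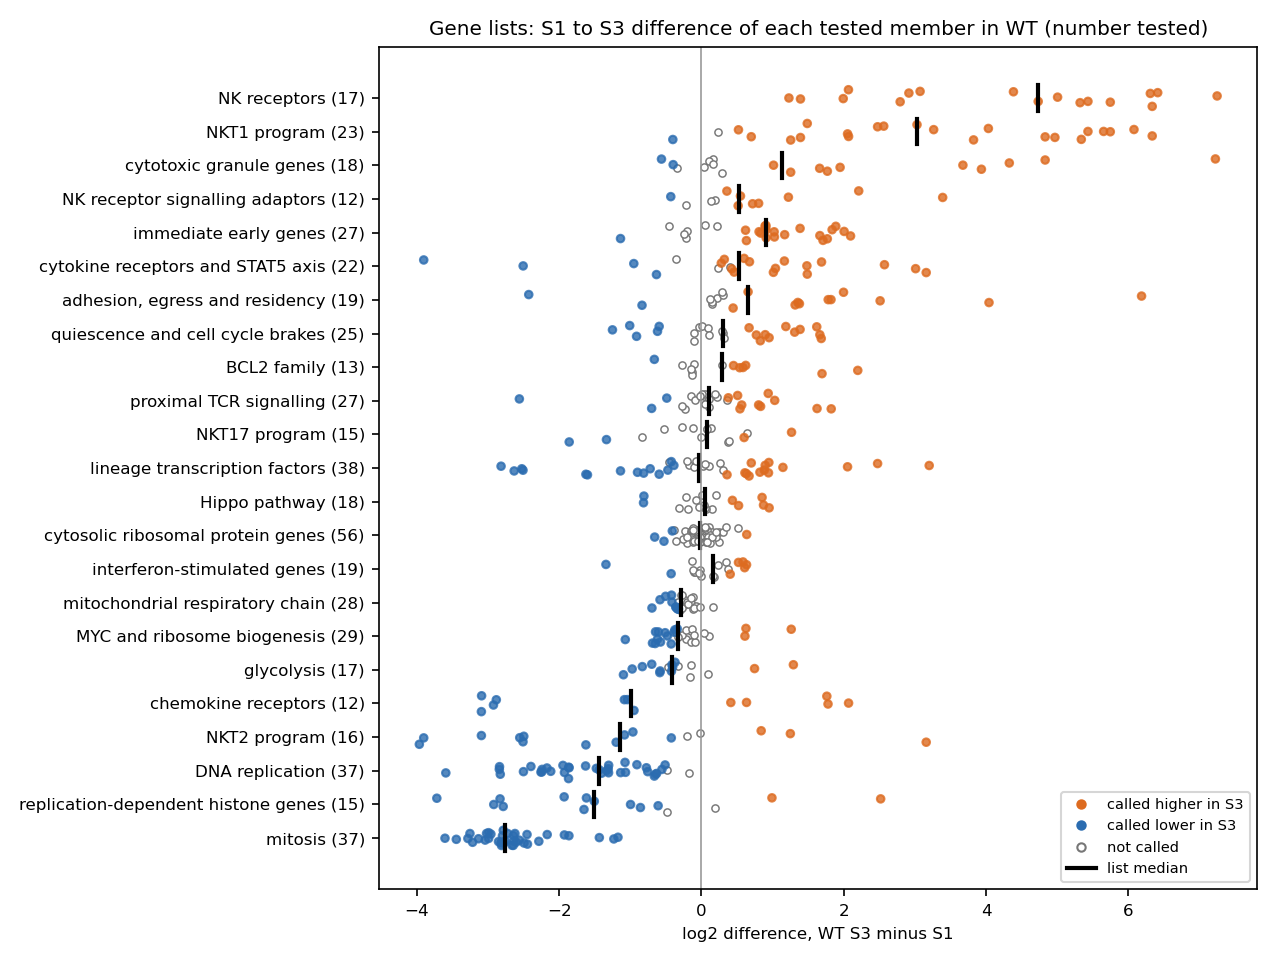
Log2 S3 minus S1 in WT (horizontal axis) of each tested member of 23 gene lists, filled where called (orange higher, blue lower) and open where not, with the list median as a bar. The median of the mitosis genes is -2.76, the NK receptors shown are those that passed the filter, 11 of 17 through S3 alone, and ribosomal protein genes (median -0.02) cluster at 0.

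In a joint list of adhesion, tissue residency and thymic exit genes most were higher, yet the exit receptor gene S1pr1 fell. Most chemokine receptors were lower. Of 19 adhesion, egress and residency genes 11 rose (57.9%, all genes 14.1%) and 2 fell (10.5%, all genes 16.7%), with a median of 0.66. Of the 19, 1 passed the filter through S3 alone and had to rise. S1pr1, a sphingosine 1-phosphate receptor needed for thymic egress, read 8.99, 9.09 and 8.60 at S1 and 6.68, 6.69 and 6.03 at S3 (-2.43 ± 0.21). Rgs1, which dampens chemokine receptor signals, read 5.46, 5.29 and 6.34 at S1 and 9.72, 9.66 and 9.83 at S3 (4.04 ± 0.25). Itga1 rose from 4.16, 4.36 and 4.24 to 10.83, 10.32 and 10.16, with its partner chain Itgb1 (1.35 ± 0.16) and with Itgae, the CD103 gene (1.32 ± 0.12). The aryl hydrocarbon receptor gene Ahr rose by 1.997 ± 0.197. All 12 tested chemokine receptors changed, 5 higher (41.7%, all genes 14.1%) and 7 lower (58.3%, all genes 16.7%). Of the 12, 1 passed the filter through S1 alone and had to fall. The lymphoid and thymic homing receptors Ccr7 (-3.09 ± 0.17) and Ccr9 (-2.92 ± 0.15) fell with Ccr10 (-2.88 ± 0.31), and Cxcr3 (2.07 ± 0.15), Ccr8 (1.78 ± 0.14), Gpr183 (1.76 ± 0.21) and Cxcr6 (0.63 ± 0.12) rose.

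Ccr7 and Lef1 also mark conventional mature T cells. Of 7 such markers tested 5 fell (71.4%, all genes 16.7%), including Igfbp4 (-3.96 ± 0.15) and Treml2 (-1.999 ± 0.139). Cd8b1 (0.05 ± 0.23) and Actn1 (-0.36 ± 0.18) were not called. Whether the CD8 microbead step before the sort removed or retained CD8+ cells is not settled by the labels, and it bears on the levels of Cd8a and Cd8b1. The summed level of the 9 measured was 12.03 to 12.30 at S1 and 10.59 to 10.63 at S3, and Cd8a and Dapl1 lay below the median on every array. Of 7 immature thymocyte markers 3 fell (42.9%, all genes 16.7%), led by Themis (-2.56 ± 0.22). Rag2, Arpp21 and Tdrd5 lay below the median on every array. The part of either cell type in the lower genes was not tested.

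Genes of cytokine receptors and of their signalling were mostly higher. Of 22 tested 15 were higher (68.2%, all genes 14.1%) and 4 lower (18.2%, all genes 16.7%), with a median of 0.53. Il2rb, the chain shared by the IL-2 and IL-15 receptors that NKT1 cells depend on, read 11.20, 10.94 and 11.17 at S1 and 12.65, 12.55 and 12.56 at S3 (1.49 ± 0.11). Il10ra (2.57 ± 0.17), Il21r (1.48 ± 0.17) and Il2ra (1.04 ± 0.19) rose, as did the feedback inhibitors Cish (1.69 ± 0.17) and Socs1 (1.17 ± 0.12). Il9r fell by 0.95 on the log2 scale (SE 0.15) and Stat5b by 0.63 (SE 0.11).

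Immediate early genes, which respond within minutes to receptor signals and to handling of cells, were higher in most cases. Of 27 tested 20 rose (74.1%, all genes 14.1%) and 1 fell (3.7%, all genes 16.7%), with a median of 0.91. Fosb (2.10 ± 0.19), Dusp1 (2.01 ± 0.12), Fosl2 (1.89 ± 0.13), Fos (1.84 ± 0.20) and Junb (1.77 ± 0.12) led, with the NF-κB inhibitor Tnfaip3 at 1.71 ± 0.11. Nr4a1, the orphan receptor gene induced by antigen receptor signals, was the member that fell, from 9.18, 8.96 and 8.90 to 7.64, 7.82 and 8.17 (-1.14 ± 0.15). Its relatives Nr4a2 (0.91 ± 0.17) and Nr4a3 (0.91 ± 0.12) rose. Of 27 genes of proximal T cell receptor signalling 10 rose (37%, all genes 14.1%) and 3 fell (11.1%, all genes 16.7%), with a median of 0.11. The phosphatase gene Ptpn22 (1.82 ± 0.09) and Ubash3a (1.62 ± 0.20), both inhibitors of the pathway, rose most, and Themis and Cd5 (-0.70 ± 0.11) fell.

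Survival and checkpoint genes were mixed. In the BCL2 family, 13 tested, 6 rose (46.2%, all genes 14.1%) and 1 fell (7.69%, all genes 16.7%), with a median of 0.29. The protector Bcl2 read 9.24, 9.14 and 8.77 at S1 and 10.89, 10.74 and 10.61 at S3 (1.69 ± 0.14). Its antagonist Bcl2l11, known as BIM, rose with it (2.20 ± 0.18). Of 16 inhibitory and costimulatory receptors 7 rose (43.8%, all genes 14.1%) and 5 fell (31.2%, all genes 16.7%). Of the 16, 1 passed the filter through S3 alone and 1 through S1 alone. Pdcd1, the PD-1 gene, fell from 8.86, 8.89 and 9.27 to 6.79, 6.91 and 7.08 (-2.08 ± 0.14) and Cd200 by 2.69 on the log2 scale (SE 0.18). Tigit read 3.85, 3.87 and 4.17 at S1 and 6.80, 5.18 and 6.52 at S3 (2.20 ± 0.37). It lay below the median on every S1 array and passed the filter through S3 alone, so it had to rise. Tnfrsf18, the GITR gene, rose by 1.68 ± 0.12.

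Of 18 Hippo pathway genes 5 rose and 2 fell (38.9%, all genes 30.8%; median 0.05), a share near that of all genes. Stk4, the kinase gene floxed in Mst1KO, read 8.10, 7.90 and 7.70 at S1 and 7.80, 8.20 and 8.13 at S3 in WT (0.14 ± 0.15, not called). In Mst1KO it read 7.56, 7.60 and 7.67 at S1 and 7.67, 7.74 and 7.56 at S3 (0.05 ± 0.09). These means of 7.61 and 7.66, against 7.90 and 8.04 in WT, are only slightly lower, so this probe set does not by itself show the deletion. Its scaffold Sav1 (0.85 ± 0.10) and the downstream kinases Lats1 (0.44 ± 0.13) and Lats2 (0.87 ± 0.12) rose, Lats1 not without replicate 1 or 2 of either stage, and Stk38 (-0.81 ± 0.12) and Map4k4 (-0.81 ± 0.10) fell.

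The largest decreases included genes outside the lists. Slc15a1, a peptide transporter gene, read 8.98, 8.99 and 8.87 at S1 and 4.05, 4.23 and 3.94 at S3 (-4.87 ± 0.11), with every S3 array below its median. Akr1c18, an aldo-keto reductase gene (-4.42 ± 0.29), Smtn, the smoothelin gene (-4.03 ± 0.13), Cntnap1, a contactin-associated protein gene (-3.99 ± 0.43), and Emb, which encodes embigin (-3.89 ± 0.30), followed. Dhrs3, a retinaldehyde reductase gene (-3.87 ± 0.26), Nrgn, the neurogranin gene (-3.65 ± 0.11), and Gm19765 (-3.45 ± 0.21) were also among the 15. Akr1c18, Nrgn, H2bc12 and Mir181b-1 likewise lay below the median on every S3 array, so the sizes and the order of these decreases are not exact. The rest of the 15 were Il17rb, Igfbp4, Il6ra, H2bc12, Depdc1a, E2f8 and the microRNA gene Mir181b-1.

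MicroRNAs pair with target RNA through bases 2 to 8, the seed, and a probe set over a microRNA gene reads its precursor or host RNA, not the mature product. Of 143 microRNA genes tested 15 were higher (10.5%, all genes 14.1%) and 3 lower (2.1%, all genes 16.7%). The share called, 12.6%, was thus below the 30.8% of all genes. Mature sequences from RefSeq on GRCm38.p6 are given for the called genes whose products are best known in lymphocytes, with the seed in capitals.
miR-181b-5p (Mir181b-1, chr1:137966650-137966673, + strand): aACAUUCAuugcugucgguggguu
miR-106b-5p (Mir106b, chr5:138165787-138165807, - strand): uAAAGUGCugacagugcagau
miR-142a-3p (Mir142, chr11:87756903-87756925, + strand): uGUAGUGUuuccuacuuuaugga
miR-23a-3p (Mir23a, chr8:84208563-84208583, + strand): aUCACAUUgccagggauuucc
miR-27a-3p (Mir27a, chr8:84208727-84208747, + strand): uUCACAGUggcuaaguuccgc
miR-342-3p (Mir342, chr12:108658680-108658702, + strand): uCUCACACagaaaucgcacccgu
Among the 17 of 18 called genes with a mature sequence, no 2 share a seed. The seed of miR-181b-5p is carried by 6 mature entries of the table and that of miR-106b-5p by 7.

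Mir181b-1 belongs to the miR-181 family, known to set the sensitivity of thymocytes to receptor signals and needed for iNKT development. It read 8.05, 6.86 and 6.58 at S1 and 2.43, 3.54 and 3.01 at S3 (-4.17 ± 0.40, adjusted p = 0.000139). Every S3 array was below its median, so the gene passed the filter through S1 alone and had to fall. The size of the decrease is not exact. Its neighbour Mir181a-1, named after its values were seen, did not pass the filter and was not tested, with 5.94, 4.23 and 4.59 at S1 and 2.39, 2.11 and 2.67 at S3. Family members of another cluster, Mir181c (0.07 ± 0.24) and Mir181d (0.20 ± 0.12), were not called. Mir106b (-1.001 ± 0.301) lies inside Mcm7, a replication gene that fell by 1.44 on the log2 scale (SE 0.13), and of the 6 fits that left out an array its own call held in 1, that without S3 replicate 3.

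Among the microRNA genes that rose, Mir342 read 6.68, 6.96 and 6.02 at S1 and 7.92, 8.35 and 8.80 at S3 (1.80 ± 0.28), more than its host gene Evl (0.40 ± 0.10). Mir23a (1.34 ± 0.23) and Mir27a (0.99 ± 0.13), neighbours on the same strand of chromosome 8, and Mir142, a gene typical of blood cells (0.69 ± 0.10), rose as well. Mir1938 rose by 1.81 ± 0.16 within Ifrd1 (0.52 ± 0.12), Mir5123 by 1.57 ± 0.48 within B4galt1 (1.00 ± 0.12) and Mir1192 by 1.29 ± 0.23 within Klf9 (0.75 ± 0.18). The other higher genes were Mir3110, Mir5099, Mir5120, Mir5125, Mir680-2, Mir665, Mir1190 and Mir692-1, with differences from 0.32 to 0.67, and the third lower gene was Mir3068 (-1.08 ± 0.23). Weak calls were lost without 1 array: Mir5123 in 3 of the 6 such fits (S1 replicate 3, S3 replicates 1 and 3), Mir680-2 in 3 (S1 replicates 1 and 3, S3 replicate 3), Mir665 in 4 (every S1 array and S3 replicate 1), Mir1190 in 5 (all but S1 replicate 2) and Mir692-1 in 5 (all but S1 replicate 3). The hosts Evl (S3 replicate 1), Ifrd1 (S1 replicate 1) and Klf9 (S1 replicates 1 and 2) lost theirs likewise.

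Some markers of myeloid cells were higher at S3. Of 12 macrophage and dendritic cell markers tested 6 rose (50%, all genes 14.1%), 1 fell (8.33%, all genes 16.7%) and 5 were not called. The lysozyme gene Lyz2 read 4.13, 3.72 and 3.91 on the S1 arrays and 6.72, 6.18 and 6.05 on the S3 arrays. Lyz2 lay below the median on every S1 array and passed the filter through S3 alone, so it had to rise. The complement gene C1qb read 5.45, 4.87 and 4.90 at S1 and 6.52, 6.73 and 6.96 at S3. The summed level of the 16 measured was 10.14 to 10.47 at S1 and 10.80 to 10.99 at S3, while Itgax, Adgre1 and Siglech lay below the median on every array. Of 2 B cell markers tested Cd22 rose (1.42 ± 0.12). Since 1 of the 2 passed the filter through S3 alone, this is a description, not support. The defining genes Cd79a, Ms4a1, Pax5, Ebf1 and Fcmr lay below the median on every array. Of 6 epithelial and stromal markers 1 fell (16.7%, the same share as of all genes), the endothelial gene Pecam1 (-1.52 ± 0.18). Krt14, Foxn1, Psmb11 and Pdgfra lay below the median on every array. Their part in the differences was not tested.

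The same stages in Mst1KO, on arrays of their own, gave a similar picture gene by gene. There 3475 of the 12232 genes changed (28.4%), 1621 higher (13.3%) and 1854 lower (15.2%). Of the genes higher in WT 65.5% were also called higher in Mst1KO, which is 69.8% of those of Mst1KO, and of those lower 66.7% and 73.5%. The genotypes called 2 genes in opposite directions, Matn2 (-1.67 in WT, 0.83 in Mst1KO) and Pde5a (-1.69 in WT, 1.43 in Mst1KO), named after their values were seen. For Matn2 the genotypes were apart at S1 and close at S3. The sign was the same in Mst1KO for 3663 of the 3772 WT genes. Of 37 mitosis genes 37 fell (median -2.08), and Ncr1 was the NK receptor not called (0.29 ± 0.23). Of 16 NKT2 genes 10 fell and 3 rose. In the NKT17 list 10 of 15 rose in Mst1KO, against 13.3% of all genes there, and 2 did in WT.

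The difference between the genotypes in this change was called for 62 genes (0.507%), 37 more positive in Mst1KO and 25 more negative. Without WT S3 replicate 3 it was called for 116. Mmp25, a membrane-anchored metalloprotease gene, read 5.44, 5.52 and 5.19 at S1 and 5.85, 5.40 and 5.25 at S3 in WT, and 5.01, 5.08 and 5.06 at S1 and 7.99, 7.45 and 7.66 at S3 in Mst1KO. The change was larger in Mst1KO by 2.53 (adjusted p = 0.00113), and by 2.33 for Laptm4b, a lysosomal membrane gene, 2.29 for the scavenger receptor gene Stab2 and 3.14 for Serpinb1a, with the same adjusted p. These genes were not called in WT and rose in Mst1KO. For Laptm4b the genotypes were close at S3, with 7.86, 7.36 and 7.35 in WT and 7.13, 7.40 and 7.21 in Mst1KO, and apart at S1, with a mean of 7.22 in WT and values of 4.38, 4.87 and 4.61 in Mst1KO. For Mmp25, Stab2 and Serpinb1a they were apart at S3 instead, where Serpinb1a read 8.18, 7.97 and 7.78 in Mst1KO. Matn2, a matrix protein gene, fell in WT (-1.67 ± 0.22) and rose in Mst1KO (0.83 ± 0.11). As for Laptm4b, the genotypes were apart at S1, with means of 6.87 in WT and 4.60 in Mst1KO. They were close at S3, with 5.19 and 5.43. Every Mst1KO S1 array of Matn2 (4.42, 4.60 and 4.78) lay below its array median, so the size of its rise there is not exact. Ifitm1, an interferon-induced membrane gene, read 3.30, 3.64 and 3.62 at S1 and 5.54, 5.96 and 6.24 at S3 in WT, where Mst1KO held 3.40 to 3.53 at S1 and 3.68 to 3.74 at S3. All of these arrays but those of WT S3 lay below their medians. Ifitm1 thus passed the filter, which was set on WT arrays, through WT S3 alone. Its rise in WT and its genotype difference were favoured by the filter and are a description, not support.

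Several genes of the lists above were among the 62. In the NKT17 list 4 of 15 differed, against 0.507% of all genes. These were Serpinb1a, Blk, Il1r1 and Sdc1, all more positive in Mst1KO. Blk was also listed as a marker of gamma-delta T cells, whose part in this was not tested. Il1r1 read 4.43, 3.67 and 4.79 at S1 and 7.70, 7.72 and 7.36 at S3 in Mst1KO, a rise of 3.30 ± 0.26 that WT did not show (0.37 ± 0.25). For Il23r the difference was larger still (3.49) but not called (adjusted p = 0.131), given the spread of the WT S3 arrays. Il4ra, Ccl5 and Prf1 rose in both genotypes, by less in Mst1KO (1.62, 3.47 and 2.94). Il17rb, Irf4, Myb, S1pr1 and Emb fell in both, by less in Mst1KO (-2.17, -1.40, -1.05, -0.78 and -1.48). Ccr2 fell in WT (-1.08 ± 0.12) and was at 0.01 ± 0.10 in Mst1KO, and Cd22 rose in WT and was at 0.16 ± 0.10 in Mst1KO. Since 1 of the 2 B cell markers tested, of which Cd22 is 1, passed the WT filter through S3 alone, its difference is a description.

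**Figure D5:**
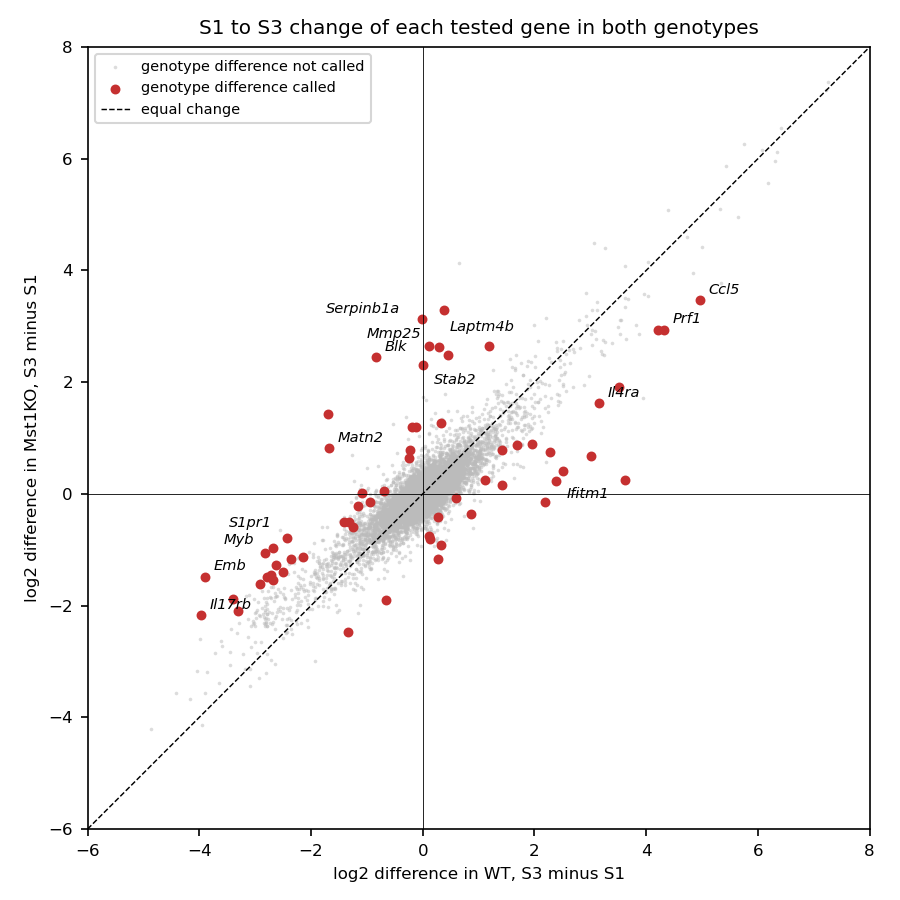
Log2 S3 minus S1 of each of the 12232 tested genes in WT (horizontal axis) and Mst1KO (vertical axis), with the 62 genes whose change differed between the genotypes in red and equal change as a dashed line. Most genes lie along the line, and Serpinb1a, Mmp25, Laptm4b, Stab2 and Blk lie above it, with Mst1KO changes between 2.31 and 3.13.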

How the data were processed

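Each value in the deposited table is a log2 intensity summary of 1 probe set. According to the submitters' processing notes the authors obtained it by RMA in Affymetrix Expression Console 1.1, which equalises the arrays' distributions before probes are summarised. The level of summary and the annotation release are not given in the sources used here. Per the labels' protocols, a CD8 microbead step preceded the sort (depletion or enrichment of CD8+ cells is not clear from them), and nanogram amounts of total RNA were amplified with a NuGEN kit.

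Of 41345 probe sets 23521 carried 1 gene symbol in the platform annotation. A probe set stayed (12829 did) if it exceeded the array median on 3 or more of the 6 WT arrays, and the brightest stood for each of 451 genes with several. Of 12232 genes 12169 matched RefSeq on GRCm38.p6. Limma 3.58.1 in R 4.3.3 fitted WT (6 arrays), Mst1KO (6) and the difference of their changes (12), with Benjamini-Hochberg adjustment over all genes. Members, lists and tests were chosen with earlier results of these data known. Named genes were, by rule, the 15 largest increases and decreases without overlap, up to 6 members of a list with the lowest p and other members with their values, 6 genes by lowest p in the genotype comparison, called microRNA genes and Stk4. S1 and S3 arrays may come from the same mice, which the unpaired fit does not use, since no label ties arrays to animals. Same-numbered WT arrays did not deviate together (correlations 0.0214, -0.0514 and -0.0154). The fits were tested on simulated data. Alternatives were no filter, a filter at percentile 75, a second quantile step, centring on medians, a variance trend, array weights, averaged probe sets, a 1.5-fold threshold, fits over more arrays, a replicate block and each array left out.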

Additional observations from a re-analysis of the deposited data

Results flagged for a closer look

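The S1 to S3 change of these genes differed between Mst1KO and WT by limma's test of the difference itself, given as the log2 change in Mst1KO minus that in WT (n = 3 per group).

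Among genes not called in WT, the change was more positive in Mst1KO for Mmp25 (2.53), Laptm4b (2.33), Serpinb1a (3.14), Stab2 (2.29), Blk (3.28), Il1r1 (2.92) and Sdc1 (1.30). Among genes lower at S3 in WT it was more positive for Matn2 (2.50), Pde5a (3.12), Myb (1.76), Ccr2 (1.09), Emb (2.42), Tlr1 (1.22), Il17rb (1.80), S1pr1 (1.64), Itgb3 (1.27) and Irf4 (1.105). Among genes higher at S3 in WT it was more negative for Ifitm1 (-2.16), Cd22 (-1.26), Il4ra (-1.54), Cd244a (-1.60), Neurl3 (-1.27), Ccl5 (-1.50) and Prf1 (-1.39). The filter was set on WT arrays and Ifitm1 passed it through WT S3 alone, so its difference was favoured by the filter. Cd22 is 1 of the 2 B cell markers tested, and 1 of these passed the filter through WT S3 alone. The difference of Cd22 is therefore a description, not support.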

How the results depend on the processing

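In WT 3772 genes were called. The count fell to 862 (381 higher, 481 lower) when a change beyond 1.5-fold was required, and lay between 2918 and 3396 when each array was left out. The count for the genotype difference, 62, was 119 with a variance trend and robust fit and 43 to 116 when each array was left out, the highest without WT S3 replicate 3. The replicate block gave 3378 genes in WT, 3217 in Mst1KO and 48 for the difference, and which S1 and S3 arrays share a mouse, if any do, is not known, so no pairing was assumed. Every other alternative run kept the WT, Mst1KO and difference counts within 1.5 times. Of 216 genes of the text called between the WT stages, 152 kept the call in every alternative run and 64 lost it in at least 1, among them the 1.5-fold threshold, and no gene reversed. Some genes not called gained a call in alternative runs: Rab27a in 6, Egr2 and Fen1 in 3 each, and Blk in 2. Klf2, Actn1 and Il23r gained a call in 1 run each. With 3 arrays per group, small changes are limited by precision, and a gene not called is not shown to be equal.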

Other observations

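The genes of this part were chosen after their values were seen and stand outside the rule for naming. All 8 tested members of the Gimap family, GTPases of immune cells known for roles in lymphocyte survival, rose between S1 and S3 in WT, by 0.82 to 2.69. Gimap3 read 6.60, 6.91 and 7.12 at S1 and 9.60, 9.70 and 9.42 at S3, and Gimap5 read 8.23, 8.13 and 8.23 at S1 and 9.999, 10.07 and 10.12 at S3. All 8 also rose in Mst1KO. Of the Ifitm genes all 4 tested rose in WT, by 0.88 to 3.63, and 1 rose in Mst1KO, with 3 of the differences called. Ifitm1 passed the filter through WT S3 alone and had to rise in WT, so these counts are a description.

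Further increases were those of Neurl3, a ubiquitin ligase gene (4.20 ± 0.16), Fgl2, which encodes a secreted fibrinogen-like protein (3.96 ± 0.18), Pik3ap1, the adaptor BCAP (3.87 ± 0.13), Cd244a, an NK receptor of the SLAM family (3.52 ± 0.17), the ectonucleotidase gene Entpd1, known as CD39 (3.23 ± 0.17), and Anxa1 (3.10 ± 0.13). Slamf6, a SLAM receptor used in iNKT selection, read 11.64, 11.67 and 11.37 at S1 and 6.91, 8.61 and 8.92 at S3 (-3.41 ± 0.45), opposite to Slamf7 and Cd244a. Tlr1 (-3.31 ± 0.12), the ATP-gated channel gene P2rx7 (-3.17 ± 0.16), the integrin gene Itgb3 (-2.72 ± 0.11) and Ezh2, the histone methyltransferase gene (-2.09 ± 0.18), fell as well. For Cdh1, the E-cadherin gene, 1 S1 array stood apart: it read 6.46, 6.80 and 8.90 at S1 and 10.25, 9.57 and 9.70 at S3 (2.46 ± 0.56). WT S1 replicate 3 was also the highest S1 array for Gzma, at 7.24.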
